A study of Mus musculus with 6 samples.

Results

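The comparison described here sets palatal mesenchyme of Osr2 mutant mouse embryos against that of controls at embryonic day 13.5 (E13.5). It rests on 4 of the 6 libraries of the study, chosen by the genotype and age in their labels: 2 libraries of genotype Osr2RFP/- (mutants) and 2 of genotype Osr2RFP/+ (controls). The other 2 libraries are 1 mutant and 1 control of E12.5 and serve only for a comparison between ages. All embryos had a mixed background and carried an allele of Osr2 marked with red fluorescent protein (RFP), and the mutants carried a minus allele in place of the wild-type one. The controls are therefore heterozygous for the RFP allele and are not wild type. The labels do not state which part of Osr2 either allele lacks. Cells were dissociated from dissected palatal shelves and sorted for RFP. The labels do not tie a library to 1 embryo, so p-values reflect how far these libraries vary among themselves, and that variation may be technical.

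Osr2 encodes a zinc finger transcription factor of the odd-skipped family, expressed in the mesenchyme of the palatal shelves. The shelves first grow down beside the tongue, then rise above it and fuse at the midline, and mouse embryos without Osr2 have a cleft palate. Growth at these stages depends on signals exchanged between the mesenchyme and the oral epithelium, among them FGF, Hedgehog and BMP ligands. Bone of the hard palate forms later, within the same mesenchyme.

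Levels are in FPKM as the authors computed it, a fragment count scaled to the length of the transcript and the size of the library, so that levels of different genes are per length. Differences are mutant minus control on the log2(FPKM + 1) scale, and folds are powers of 2 of those differences, which are too small for genes near 0 FPKM. A gene was called when its adjusted p from the limma moderated test was under 0.05. Where several values follow each other within a group they are those of replicate 1 and then replicate 2.

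The 4 libraries had FPKM sums of 158208 to 167058 and an estimated 14100000 to 16700000 fragments each. Mutant replicate 2 was the only one of the 4 with Xist, the RNA that coats an inactive X chromosome. Its Xist level was 138 FPKM against at most 0.0194 in the others. Ddx3y, a gene of the Y chromosome, was at 0.00281 FPKM in mutant replicate 2 and at 3.56 to 3.97 FPKM in the others. Mutant replicate 2 thus had the pattern of female cells and the others that of male cells. Mutant replicate 1 was the only one with the title number 3047, the others having 3048, and the labels do not say what the number means. Leaving out mutant replicate 1 thus gives the comparison within title number 3048, and leaving out mutant replicate 2 gives it within the libraries without Xist. The mesenchyme markers Osr2, Pdgfra, Prrx1, Twist1, Msx1, Col1a1, Col1a2 and Vim summed to 797 to 911 FPKM in each library. Markers of other cell types were low: 18 of oral epithelium summed to 6.34 to 7.55 FPKM, 14 of endothelium to 2.58 to 3.49, 10 of glia to 1.25 to 1.54, 16 of skeletal muscle to 2.34 to 4.11 (Tnni1 at 0 in all 4), 15 of leukocytes to 3.99 to 9.03 and 10 of pericytes and smooth muscle to 16.0 to 18.7. The 13 erythroid genes summed to 472 and 263 FPKM in mutant and 593 and 501 FPKM in control libraries. The 15 neuronal genes, with the called genes Nefl and Nefm among them, summed to 80.9 and 92.5 FPKM in mutant and 56.6 and 52.3 FPKM in control libraries. In bulk RNA of sorted cells, fewer cells of a type and less RNA per cell cannot be told apart.

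Osr2 was lower in both mutant libraries. Its level was 68.5 and 88.4 FPKM in mutant and 138 and 152 FPKM in control libraries, and the groups did not overlap. The difference was 1.85-fold (log2 -0.89, SE 0.165, adjusted p = 0.0217), and RNA of the locus thus remained in the mutants. The call was lost without control replicate 2 (adjusted p = 0.148), with a minimum mean of 1 or 5 FPKM in place of the filter used (adjusted p = 0.0547 and 0.0541), with no filter (adjusted p = 0.306) and with the highest transcript alone (adjusted p = 0.121). The values do not separate transcripts of the alleles.

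Of 10589 genes tested, 180 were called, which is 1.70% of them. Of these, 113 were higher in mutants (1.07% of the genes tested) and 67 were lower (0.633%). The median difference of all genes tested was 0.04 on the log2 scale. In all 180 called genes both mutant libraries lay beyond both control libraries, as they did in 4022 of all genes tested (38.0%). The differences were mostly moderate: 44 of the higher and 12 of the lower genes differed at least 2-fold, and the smallest called differences were 0.61 and -0.60 on the log2 scale. Of the 180 calls, 114 were also made under all 3 other scalings of the libraries (to an equal FPKM sum, by median ratios and by quantiles). Leaving out 1 library could not change the sign of a called gene, because its groups did not overlap. The number of calls changed with the processing, for a cause that was not tested: with no filter on low values limma called 0 genes (smallest adjusted p = 0.0904, with 1459 genes at an unadjusted p under 0.05), and with the highest transcript of each gene in place of the sum it called 38. Without mutant replicate 1 it called 383 genes, 165 of the 180 among them. Of the called genes, 22 are of uncertain assignment, because they are very short, lie at several loci, share a locus or have a near-identical copy, and they are marked as such below. Genes of bone and of the semaphorin and BMP pathways were among the largest, including Alpl (3.45-fold higher), Sp7 (2.96-fold), Sema3a (2.66-fold), Sema3d (2.53-fold) and Bmp3 (2.25-fold), and the classes beyond them are described here. An exact permutation test of 2 against 2 libraries cannot give a two-sided p under 0.333, so single genes have only the p of the fit over all genes.

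**Figure D1:**
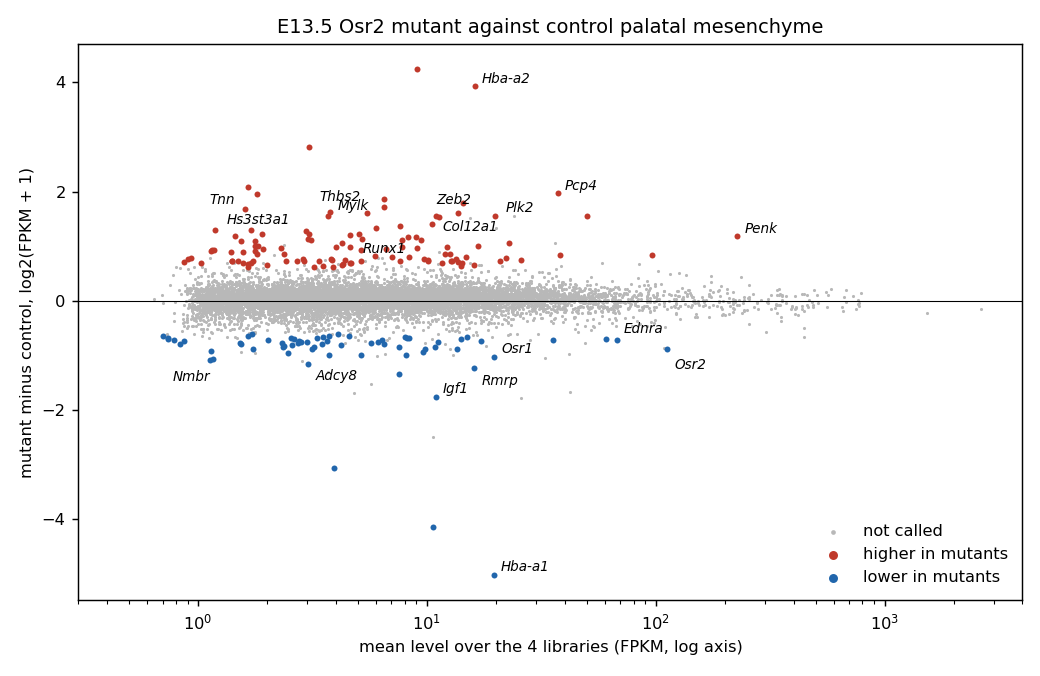
Mean FPKM over the 4 libraries (horizontal, log axis) against the mutant minus control difference on the log2(FPKM + 1) scale (vertical) for the 10589 genes tested. The 113 genes called higher are red, the 67 called lower are blue and the rest grey. Most called genes have modest levels, and Penk, Ednra and Osr2 are among the few called at high levels.

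Among secreted ligands, Igf1 had the largest decrease of a gene of clear assignment. Igf1 encodes insulin-like growth factor 1, which promotes growth through its receptor Igf1r. Its level was 5.13 and 3.78 FPKM in mutant and 15.1 and 19.7 FPKM in control libraries. Both control libraries were far above both mutant libraries, and Igf1 was lower 3.38-fold (log2 -1.76, SE 0.166, adjusted p = 0.000321). Pappa and Pappa2 encode secreted proteases that cut IGF-binding proteins and so free the ligand. Both rose: Pappa2 had 6.85 and 8.31 FPKM in mutant and 2.98 and 2.77 FPKM in control libraries (2.21-fold, adjusted p = 0.00149), and Pappa had 2.19 and 1.81 FPKM in mutant and 0.972 and 0.674 FPKM in control libraries (1.65-fold, adjusted p = 0.0333). These were the 3 called genes of the 19 tested in the insulin-like growth factor axis, whose median difference was 0.08. Igfbp5, a binding protein of the axis, differed by 0.63 on the log2 scale without passing the test (adjusted p = 0.0527). Pappa was no longer called without mutant replicate 1 (adjusted p = 0.0863) or without control replicate 2 (adjusted p = 0.0896). Pappa was not called under at least 1 of the 3 other scalings (adjusted p = 0.0882 at the highest).

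Penk, the precursor of the enkephalin opioid peptides, was the most abundant gene among the called ones, with 301 and 332 FPKM in mutant and 145 and 133 FPKM in control libraries. It rose 2.26-fold (log2 1.18, SE 0.156, adjusted p = 0.00341) in mutants, with no overlap between the groups. Neuromedin B, a bombesin-like peptide encoded by Nmb, went the other way together with its receptor. Nmb had 1.14 and 1.16 FPKM in mutant and 2.43 and 2.16 FPKM in control libraries and fell 1.53-fold (adjusted p = 0.0445). Its receptor gene Nmbr had 0.363 and 0.425 FPKM in mutant and 1.86 and 1.98 FPKM in control libraries, a decrease of 2.09-fold (log2 -1.07, SE 0.134, adjusted p = 0.00248). Both genes are close to the lower limit of the filter, so their folds are understated. Of 8 peptide precursors tested, Penk and Nmb were the called ones. Ntf3, the neurotrophin that binds TrkC, fell 1.61-fold (1.67 and 1.78 against 3.53 and 3.24 FPKM, adjusted p = 0.0208), the 1 call among 13 neurotrophin and GDNF genes. Nmb was no longer called without mutant replicate 1 (adjusted p = 0.0624), without mutant replicate 2 (adjusted p = 0.0717) or without control replicate 1 (adjusted p = 0.14). Nmb was not called under at least 1 of the 3 other scalings (adjusted p = 0.0648 at the highest).

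In the FGF pathway, the ligand Fgf10 fell while the receptor Fgfr2 rose. Fgf10 is made by mesenchyme and signals to the epithelial form of Fgfr2. It had 1.52 and 1.69 FPKM in mutant and 3.52 and 3.61 FPKM in control libraries, lower 1.75-fold (log2 -0.81, SE 0.126, adjusted p = 0.00927). Fgfr2 had 15 and 16.5 FPKM in mutant and 9.55 and 7.11 FPKM in control libraries, higher 1.81-fold (adjusted p = 0.0174). Etv1, an ETS factor that FGF signalling induces, rose 1.98-fold (9.13 and 12.3 against 4.68 and 5.08 FPKM, adjusted p = 0.00892). The remaining 15 of 18 FGF genes tested were not called, and Fgf18 differed by -0.89 (adjusted p = 0.062). The EGF receptor gene Egfr rose 1.66-fold (8.98 and 10.6 against 4.75 and 6.31 FPKM, adjusted p = 0.038). The neuregulin gene Nrg3 fell 1.62-fold (0.426 and 0.241 against 1.30 and 1.01 FPKM, adjusted p = 0.0453). Egfr and Nrg3 were 2 of 5 tested genes of a list written after the values were seen. Lgr5, a receptor for R-spondins that amplifies Wnt signalling, had 15.2 and 18.1 FPKM in mutant and 7.72 and 8.04 FPKM in control libraries and rose 1.98-fold (log2 0.99, SE 0.135, adjusted p = 0.004), as the 1 call among 46 Wnt pathway genes. Ndp, which encodes the Frizzled-4 ligand norrin, fell 1.74-fold (0.426 and 0.251 against 1.41 and 1.24 FPKM, adjusted p = 0.0182). Stra6, the membrane receptor that takes up retinol, fell 1.68-fold (7.85 and 8.42 against 14.2 and 14.5 FPKM, adjusted p = 0.0136), 1 of 17 retinoid genes. Egfr, Nrg3 and Ndp were no longer called without mutant replicate 2 (adjusted p = 0.0676, 0.142 and 0.0602). Egfr and Nrg3 were no longer called without control replicate 1 (adjusted p = 0.22 and 0.0921). Fgfr2 was no longer called without control replicate 2 (adjusted p = 0.111). Egfr and Nrg3 were not called under at least 1 of the 3 other scalings (highest adjusted p = 0.0905 to 0.121).

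Receptors for vasoactive peptides changed in both directions. Ednra, the receptor of endothelin 1 that patterns cranial neural crest derivatives, was the most abundant of them. Its level was 48.4 and 53.2 FPKM in mutant and 82 and 86 FPKM in control libraries, and it fell 1.64-fold (log2 -0.72, SE 0.141, adjusted p = 0.0296). Of the angiotensin II receptors, Agtr1a rose 1.54-fold (2.33 and 2.09 against 1.12 and 1.05 FPKM, adjusted p = 0.0419) and Agtr2 fell 1.62-fold (6.68 and 5.38 against 9.81 and 10.8 FPKM, adjusted p = 0.0322). Enpep, the aminopeptidase that turns angiotensin II into angiotensin III, rose 1.93-fold (log2 0.95, SE 0.148, adjusted p = 0.00927). Calcrl, the receptor for calcitonin gene-related peptide and adrenomedullin, fell 1.64-fold (1.33 and 1.24 against 2.69 and 2.80 FPKM, adjusted p = 0.0179). These were 5 of 14 tested genes of a list written after the values were seen, whose median difference was 0.02. Agtr1a was no longer called without mutant replicate 1 (adjusted p = 0.0949). Agtr1a and Agtr2 were no longer called without mutant replicate 2 (adjusted p = 0.0537 and 0.0562). Ednra was no longer called without control replicate 1 (adjusted p = 0.157). Ednra, Agtr1a and Agtr2 were no longer called without control replicate 2 (adjusted p = 0.28, 0.0935 and 0.111). Agtr1a and Agtr2 were not called under at least 1 of the 3 other scalings (highest adjusted p = 0.0752 to 0.0887).

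Among the other receptors, the prostaglandin E2 receptor gene Ptger4 had 2.50 and 2.43 FPKM in mutant and 0.624 and 0.611 FPKM in control libraries and rose 2.14-fold (log2 1.10, SE 0.13, adjusted p = 0.00154). Hpgd, whose enzyme inactivates prostaglandin E2, rose as well, 1.91-fold (7.75 and 6.43 against 3.62 and 2.88 FPKM, adjusted p = 0.00892). The orphan receptor gene Gpr25 rose 1.52-fold (adjusted p = 0.0345). Darc, which encodes a receptor that binds chemokines without signalling through G proteins, fell 1.70-fold (4.58 and 3.32 against 8.16 and 6.64 FPKM, adjusted p = 0.035). Over the 44 G protein-coupled receptors of the family list that were tested, 3 were higher (Agtr1a, Gpr25 and Ptger4) and 3 lower (Agtr2, Calcrl and Ednra), with a median of -0.06. Nmbr is not in that list. Gpr25 and Darc were no longer called without mutant replicate 2 (adjusted p = 0.0521 and 0.0691) or without control replicate 1 (adjusted p = 0.105 and 0.0746). Gpr25 was no longer called without control replicate 2 (adjusted p = 0.0676). Gpr25 and Darc were not called under at least 1 of the 3 other scalings (highest adjusted p = 0.078 to 0.0811).

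Inside the cell, single genes of cyclic AMP, G protein and calmodulin signalling were called. Adcy8 encodes a calcium- and calmodulin-stimulated adenylyl cyclase. It had 1.63 and 1.36 FPKM in mutant and 4.74 and 4.39 FPKM in control libraries and fell 2.24-fold (log2 -1.16, SE 0.13, adjusted p = 0.00108), as the 1 call among 31 cyclases, phosphodiesterases and A-kinase anchors. The G protein gamma subunit genes Gng3 and Gng4 were both lower. Gng3 had 2.67 and 3.53 FPKM in mutant and 8.13 and 6.25 FPKM in control libraries (2.00-fold, adjusted p = 0.00938), and Gng4 had 1.86 and 1.99 FPKM in mutant and 4.21 and 4.58 FPKM in control libraries (1.85-fold, adjusted p = 0.00531). They were the only called genes among 31 G protein subunits and RGS proteins. Pcp4, a small protein that binds calmodulin, had the largest increase of a gene of clear assignment. Its level was 73.7 and 47 FPKM in mutant and 13.2 and 15.4 FPKM in control libraries. The mutant libraries differed from each other, yet both were at least 3 times as high as the higher control, and Pcp4 rose 3.93-fold (log2 1.97, SE 0.195, adjusted p = 0.000469). Camk2a, a calmodulin-dependent kinase, fell 1.70-fold (0.765 and 0.959 against 1.72 and 2.68 FPKM, adjusted p = 0.0449). Camk2a was no longer called without mutant replicate 1 (adjusted p = 0.0707) or without control replicate 2 (adjusted p = 0.171). Camk2a was not called under at least 1 of the 3 other scalings (adjusted p = 0.122 at the highest).

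Of 37 Polo-like and stress-activated kinases tested, 2 were called, both higher. Of 26 protein tyrosine phosphatases tested, 2 were higher and 1 lower, and of 14 dual-specificity phosphatases 1 was lower. Of all genes tested 1.70% were called. Plk2, a Polo-like kinase, had 28.9 and 31.2 FPKM in mutant and 10.6 and 8.64 FPKM in control libraries and rose 2.94-fold (log2 1.56, SE 0.141, adjusted p = 0.000235). The pseudokinase gene Trib2 rose 1.58-fold (adjusted p = 0.0267) and the salt-inducible kinase gene Sik3 1.69-fold (adjusted p = 0.0121). Receptor-type tyrosine phosphatases differed in direction, with Ptprv higher 2.44-fold (3.53 and 2.16 against 0.708 and 0.409 FPKM, adjusted p = 0.0052), Ptprr higher 1.60-fold (adjusted p = 0.0421) and Ptpre lower 1.70-fold (1.94 and 1.97 against 4.25 and 3.81 FPKM, adjusted p = 0.0121). Dusp23, a dual-specificity phosphatase, fell 1.74-fold (adjusted p = 0.02), and Ppp1r3b, which targets protein phosphatase 1 to glycogen, rose 1.62-fold (adjusted p = 0.0244). Arhgef6, an exchange factor that activates Rac1 and Cdc42, rose 1.88-fold (2.01 and 1.57 against 0.543 and 0.412 FPKM, adjusted p = 0.00979). Ptprr was no longer called without mutant replicate 2 (adjusted p = 0.155). Trib2 and Ppp1r3b were no longer called without control replicate 1 (adjusted p = 0.0857 and 0.053) or without control replicate 2 (adjusted p = 0.21 and 0.0993). Ptprr and Ppp1r3b were not called under at least 1 of the 3 other scalings (highest adjusted p = 0.0703 to 0.0948).

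**Figure D2:**
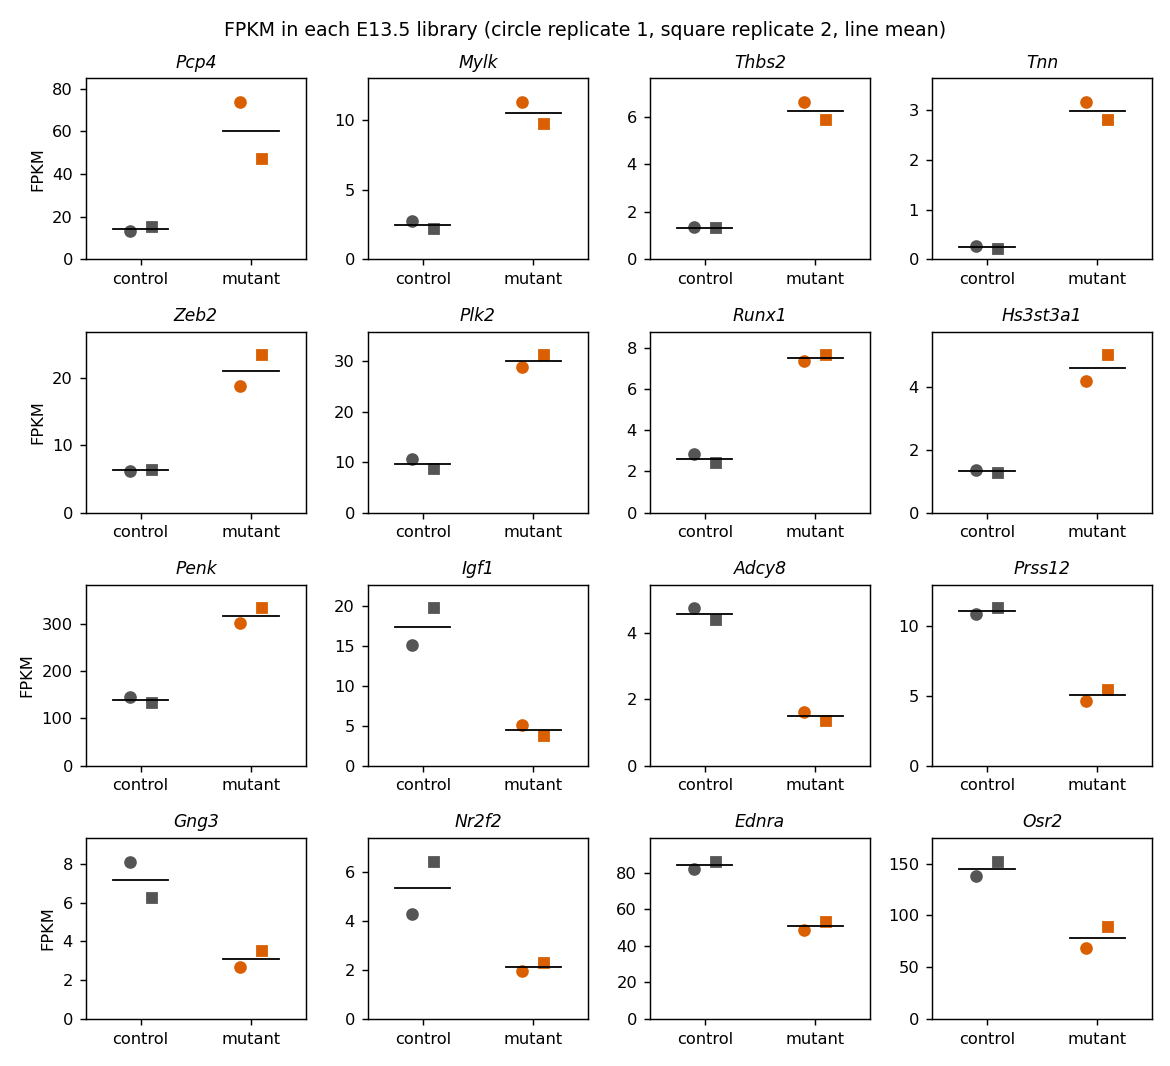
FPKM of 16 genes in each E13.5 library, with controls in grey and mutants in orange. Circles are replicate 1, squares replicate 2 and lines group means, and each vertical axis starts at 0. In each panel both mutant libraries lie on one side of both control libraries.

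Transcription factor genes moved in both directions. Zeb2, a zinc finger homeobox repressor active in neural crest and mesenchyme, had 18.8 and 23.4 FPKM in mutant and 6.18 and 6.34 FPKM in control libraries and rose 3.03-fold (log2 1.60, SE 0.14, adjusted p = 0.000211). Its family relative Zfhx3 rose 1.70-fold (adjusted p = 0.0278). The Iroquois factor gene Irx5 rose 2.17-fold (11.4 and 15.1 against 5.77 and 5.28 FPKM, adjusted p = 0.0036) and Emx2, best known from the forebrain and urogenital system, 2.13-fold (2.83 and 2.70 against 1.02 and 0.550 FPKM, adjusted p = 0.00503). Lower homeobox genes included Shox2 and Lhx8, both palate regulators in mouse. Shox2 had 44.2 and 48.3 FPKM in mutant and 77.6 and 73.2 FPKM in control libraries (1.62-fold, adjusted p = 0.0333), and Lhx8 had 26 and 27.4 FPKM in mutant and 41.7 and 47.3 FPKM in control libraries (1.64-fold, adjusted p = 0.0267). The TALE factor gene Meis3 fell 1.51-fold (adjusted p = 0.048), and Tshz2 fell 1.80-fold (adjusted p = 0.00838), though its transcript has a near-identical copy annotated under another symbol. The homeobox list thus had 4 members higher and 4 lower of 53 tested, with a median of 0.09. En1, a homeobox gene that is not in that list, rose 1.65-fold (adjusted p = 0.0408). En1 was no longer called without mutant replicate 1 (adjusted p = 0.0828). Meis3 was no longer called without mutant replicate 2 (adjusted p = 0.104). Shox2, Lhx8 and Meis3 were no longer called without control replicate 1 (adjusted p = 0.292, 0.0563 and 0.0684). Shox2, Lhx8, Meis3 and En1 were no longer called without control replicate 2 (adjusted p = 0.154 to 0.28). Zfhx3, Meis3 and En1 were not called under at least 1 of the 3 other scalings (highest adjusted p = 0.0756 to 0.0987).

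The orphan nuclear receptors Nr2f1 and Nr2f2, which repress or activate many developmental genes, were lower together. Nr2f1 had 8.27 and 6.64 FPKM in mutant and 14 and 14.3 FPKM in control libraries (1.80-fold, adjusted p = 0.0114). Nr2f2 had 1.97 and 2.28 FPKM in mutant and 4.29 and 6.41 FPKM in control libraries (2.01-fold, adjusted p = 0.0118), and its control libraries differed from each other by more than its mutant libraries did. They were the only calls among 18 nuclear receptors. Osr1, the paralog of Osr2, had 13 and 11.7 FPKM in mutant and 21.2 and 32.8 FPKM in control libraries and fell 2.05-fold (adjusted p = 0.0182). The helix-loop-helix list, with 39 genes tested, had Sim2 higher 1.67-fold (31.3 and 33.8 against 20.8 and 17.5 FPKM, adjusted p = 0.0241). In the same list Ebf3 and the dioxin receptor gene Ahr were lower, 1.56-fold (adjusted p = 0.0428) and 1.60-fold (adjusted p = 0.0449). Ebf3 was no longer called without mutant replicate 1 (adjusted p = 0.0643). Ahr was no longer called without mutant replicate 2 (adjusted p = 0.0847). Ebf3 and Ahr were no longer called without control replicate 1 (adjusted p = 0.186 and 0.202). Osr1 and Sim2 were no longer called without control replicate 2 (adjusted p = 0.0614 and 0.269). Nr2f2, Osr1, Ebf3 and Ahr were not called under at least 1 of the 3 other scalings (highest adjusted p = 0.0538 to 0.0815).

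In other factor families most calls were higher. All 3 Runx genes rose. Runx1, known for blood formation, had 7.35 and 7.63 FPKM in mutant and 2.84 and 2.39 FPKM in control libraries (2.35-fold, adjusted p = 0.000624). Runx2, required for osteoblasts, rose 2.92-fold (adjusted p = 0.000476). Runx3 had 2.84 and 2.71 FPKM in mutant and 0.833 and 0.938 FPKM in control libraries (2.00-fold, adjusted p = 0.00291). They were the called ones of 7 tested genes in a Runx and Cbfb list written after the values were seen. Mef2c, a MADS box factor, rose 3.03-fold (log2 1.60, SE 0.151, adjusted p = 0.000321), and the large Maf factor gene Maf rose 2.16-fold (adjusted p = 0.0012). Foxp1 was the 1 call among 21 forkhead genes and rose 2.26-fold (10.2 and 13.5 against 4.84 and 4.49 FPKM, adjusted p = 0.00248). Sox6 was the 1 call among 7 Sox genes, higher 3.63-fold (adjusted p = 0.000113). The repressor Snai1 rose 1.66-fold (adjusted p = 0.0391) and the histone deacetylase gene Hdac9 1.68-fold (adjusted p = 0.0138). Of the Krueppel-like and Sp factors, Klf4, Klf3 and the osteoblast factor Sp7 were higher (2.01-fold, 1.55-fold and 2.96-fold) and Klf14 lower (1.58-fold, adjusted p = 0.0305). Mecom, a zinc finger gene listed at several loci and thus of uncertain assignment, rose 2.59-fold (adjusted p = 0.0037). Klf14 was no longer called without mutant replicate 2 (adjusted p = 0.0697). Klf3 was no longer called without control replicate 1 (adjusted p = 0.124). Snai1, Klf4 and Klf3 were no longer called without control replicate 2 (adjusted p = 0.333, 0.0581 and 0.203). Snai1, Klf4, Klf3 and Klf14 were not called under at least 1 of the 3 other scalings (highest adjusted p = 0.0591 to 0.0948).

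In binding assays, odd-skipped family proteins prefer the letters CAGTAGC, which read GCTACTG on the other strand. RefSeq start windows (GRCm38.p6, 250 bases before to 50 after each start) were found for 8506 of the 10589 genes tested, and 333 of their 10801 windows (3.08%) held these letters on either strand. The windows of genes called higher held them in 7 of 117 (5.98%) and those of genes called lower in 2 of 78 (2.56%), beside 3.70% of all 32851 windows in the table. A match describes the letters of a window, not binding. The 250 bases before the start in question are printed for 4 of the matching genes, because Igf1 and Nr2f1 are among the genes that fell and Runx1 and Emx2 among those that rose. Each reads 5′ to 3′ along the strand of its gene, with the matching letters in capitals:
Igf1 (chr10:87860861-87861110, plus strand): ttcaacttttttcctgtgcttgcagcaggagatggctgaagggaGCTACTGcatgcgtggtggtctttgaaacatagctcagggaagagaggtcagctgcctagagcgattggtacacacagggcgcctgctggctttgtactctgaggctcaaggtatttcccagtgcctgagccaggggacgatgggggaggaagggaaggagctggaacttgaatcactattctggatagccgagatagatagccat
Nr2f1 (chr13:78196450-78196699, minus strand): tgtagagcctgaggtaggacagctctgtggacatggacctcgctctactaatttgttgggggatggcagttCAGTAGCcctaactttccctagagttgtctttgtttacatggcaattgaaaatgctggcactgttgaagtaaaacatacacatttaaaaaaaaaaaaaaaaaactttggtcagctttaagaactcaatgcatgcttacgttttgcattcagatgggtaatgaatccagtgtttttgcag
Runx1 (chr16:92697330-92697579, minus strand): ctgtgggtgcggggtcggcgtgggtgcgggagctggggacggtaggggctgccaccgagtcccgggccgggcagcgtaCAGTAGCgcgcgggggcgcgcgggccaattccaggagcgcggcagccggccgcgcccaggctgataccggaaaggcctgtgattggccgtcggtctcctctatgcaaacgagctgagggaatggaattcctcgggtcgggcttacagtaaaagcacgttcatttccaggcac
Emx2 (chr19:59458440-59458689, plus strand): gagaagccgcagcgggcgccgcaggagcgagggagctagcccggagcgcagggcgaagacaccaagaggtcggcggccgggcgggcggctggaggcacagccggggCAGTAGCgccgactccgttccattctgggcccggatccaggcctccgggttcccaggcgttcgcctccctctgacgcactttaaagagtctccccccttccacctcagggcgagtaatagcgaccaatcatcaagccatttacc
The match begins 206 bases before the start in Igf1, 179 in Nr2f1, 172 in Runx1 and 144 in Emx2, so that genes of both directions hold it. Only the Emx2 window borders the outer start of its locus, at base 59458690. The Igf1 locus starts at 87859056, and on the minus strand those of Nr2f1 and Runx1 start at 78198982 and 92826066. The windows of Igf1, Nr2f1 and Runx1 thus precede starts that lie inside the locus.

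Matrix and cell surface genes were called in both directions. Heparan sulphate chains bind FGFs and other ligands according to their sulphation, and 3 enzymes that add the 3-O-sulphate group rose. Hs3st3a1 had 4.19 and 5.00 FPKM in mutant and 1.36 and 1.26 FPKM in control libraries and rose 2.42-fold (log2 1.27, SE 0.133, adjusted p = 0.000624). Hs3st3b1, beside it on chromosome 11, had 4.12 and 5.19 FPKM in mutant and 1.46 and 1.73 FPKM in control libraries (2.17-fold, adjusted p = 0.00248), and Hs3st5 on chromosome 10 rose 1.86-fold (2.58 and 2.09 against 0.834 and 0.745 FPKM, adjusted p = 0.00892). No other gene of the 28 tested for heparan sulphate, syndecans and glypicans was called, and the median of that list was 0.15. 

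Genes known from tendon, ligament and fibrous joint tissue rose in several cases. Tnmd, a membrane protein that marks tendon, had 4.04 and 2.92 FPKM in mutant and 0.0652 and 0.226 FPKM in control libraries, so that it was near 0 in the controls, and rose 3.89-fold (log2 1.96, SE 0.159, adjusted p = 0.000113). Thbs2, a thrombospondin of the matrix, had 6.61 and 5.87 FPKM in mutant and 1.35 and 1.32 FPKM in control libraries and rose 3.10-fold (log2 1.63, SE 0.127, adjusted p = 0.000113). Tnn, a tenascin also called tenascin-W, had 3.16 and 2.79 FPKM in mutant and 0.277 and 0.207 FPKM in control libraries and rose 3.20-fold (log2 1.68, SE 0.135, adjusted p = 0.000113). Col12a1, a collagen on the surface of fibrils, had 18.4 and 15.1 FPKM in mutant and 5.11 and 4.95 FPKM in control libraries (2.93-fold, adjusted p = 0.000211). Prg4, the lubricating protein of joints, had 5.13 and 4.25 FPKM in mutant and 1.57 and 1.29 FPKM in control libraries (2.34-fold, adjusted p = 0.0011). Aspn rose 2.08-fold (adjusted p = 0.00524) but shares its locus with Cenpp. The corneal and tendon keratan sulphate proteoglycan gene Kera fell 1.56-fold (adjusted p = 0.0453), at levels of at most 1.10 FPKM. Dcn, the small proteoglycan decorin, had 5.65 and 2.12 FPKM in mutant and 7.64 and 8.77 FPKM in control libraries and was not called (log2 -1.01, adjusted p = 0.113). These called genes were 6 higher and 1 lower of 16 tested genes in a list written after the values were seen, with a median of 0.23. Kera was no longer called without mutant replicate 1 (adjusted p = 0.06), without mutant replicate 2 (adjusted p = 0.135) or without control replicate 2 (adjusted p = 0.0674). Kera was not called under at least 1 of the 3 other scalings (adjusted p = 0.0948 at the highest).

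Of 27 collagen genes, Col12a1, Col11a1 and Col8a1 were called and all rose, with a median of 0.15 over the 27. Col8a1, a short-chain collagen, was abundant at 112 and 136 FPKM in mutant and 72.8 and 65.3 FPKM in control libraries (1.78-fold, adjusted p = 0.0231), and Col11a1 rose 1.64-fold (adjusted p = 0.038). P4ha3, a prolyl hydroxylase of collagen, rose 1.74-fold (adjusted p = 0.0118). Antxr1 and Antxr2, receptors that bind collagens and also anthrax toxin, rose 1.70-fold (adjusted p = 0.0125) and 1.61-fold (adjusted p = 0.0372). The laminin receptor gene Itga6 was the 1 call among 15 integrins and rose 1.80-fold (3.56 and 3.12 against 1.49 and 1.34 FPKM, adjusted p = 0.00892). The proteoglycan gene Spock1 rose 1.68-fold (adjusted p = 0.0138), and the small leucine-rich proteoglycan gene Podn fell 1.67-fold (2.57 and 2.42 against 4.57 and 5.09 FPKM, adjusted p = 0.0143). Of 49 secreted and membrane proteases tested, 1 was called higher and 1 lower. Of 16 protease inhibitors tested, 2 were called higher and 1 lower, beside 1.70% called of all genes tested. The gelatinase gene Mmp9 rose 1.81-fold (adjusted p = 0.0279) and Prss12, the serine protease neurotrypsin, fell 2.01-fold (4.66 and 5.43 against 10.9 and 11.3 FPKM, adjusted p = 0.0029). The inhibitors Timp3, which shares a locus with Syn3, and Itih5 rose 1.61-fold and 1.90-fold, and Serping1, the inhibitor of complement C1, fell 1.63-fold (adjusted p = 0.0278). Mmp9 was no longer called without mutant replicate 1 (adjusted p = 0.0747). Col11a1, Antxr2 and Serping1 were no longer called without mutant replicate 2 (adjusted p = 0.0521, 0.0688 and 0.0691). Col8a1, P4ha3, Antxr2, Timp3 and Serping1 were no longer called without control replicate 1 (adjusted p = 0.0527 to 0.208). Col8a1, Col11a1 and Timp3 were no longer called without control replicate 2 (adjusted p = 0.255, 0.33 and 0.13). Col11a1, Antxr2, Mmp9 and Serping1 were not called under at least 1 of the 3 other scalings (highest adjusted p = 0.058 to 0.114).

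**Figure D3:**
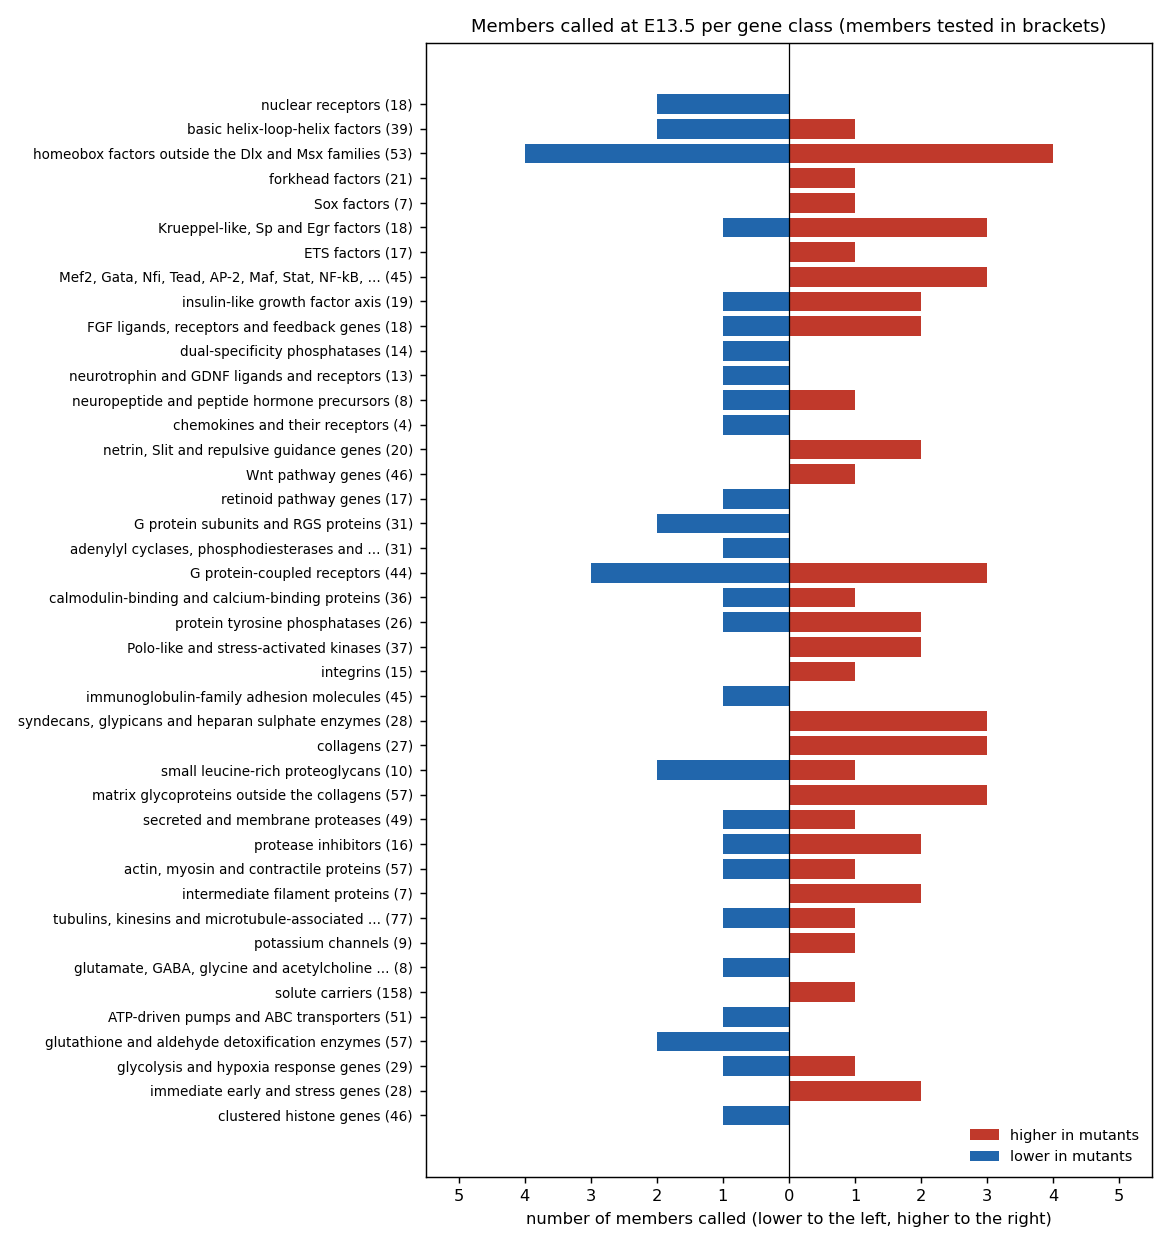
Number of members called at E13.5 in gene classes with at least 1 call, lower in mutants to the left (blue) and higher to the right (red), with the number of members tested in brackets. The homeobox and G protein-coupled receptor classes were called equally in both directions, and most classes had 1 to 3 calls.

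Genes of the cytoskeleton and membrane included Mylk, the kinase that phosphorylates myosin light chains. Mylk had 11.3 and 9.75 FPKM in mutant and 2.79 and 2.21 FPKM in control libraries and rose 3.29-fold (log2 1.72, SE 0.139, adjusted p = 0.000113). Among pericyte and smooth muscle markers, whose sums are given above, Rgs5 differed by -0.42 on the log2 scale (adjusted p = 0.223), and the part of such cells in the level of Mylk was not tested. Of 57 actin, myosin and contractile genes, the other call was Ablim3, which binds actin and fell 1.63-fold (0.289 and 0.358 against 1.18 and 1.12 FPKM, adjusted p = 0.0284). Cav1 and Ptrf, whose proteins build caveolae, rose 1.65-fold (adjusted p = 0.0217) and 1.74-fold (adjusted p = 0.0235). In the dystrophin complex, the sarcoglycan gene Sgcd rose 1.77-fold (7.56 and 8.19 against 4.06 and 3.99 FPKM, adjusted p = 0.00838) and Dmd fell 1.55-fold (1.01 and 1.16 against 2.30 and 2.17 FPKM, adjusted p = 0.0372). Tspan8 and Tspan18 of the tetraspanins rose 1.86-fold (adjusted p = 0.0128) and 1.66-fold (adjusted p = 0.0135), and the membrane protein gene Emp1 rose 1.66-fold (adjusted p = 0.02). Ablim3 and Dmd were no longer called without mutant replicate 1 (adjusted p = 0.0673 and 0.0698). Ablim3 and Cav1 were no longer called without mutant replicate 2 (adjusted p = 0.0518 and 0.0636). Dmd was no longer called without control replicate 1 (adjusted p = 0.0761). Ptrf was no longer called without control replicate 2 (adjusted p = 0.115). Ablim3, Cav1, Ptrf, Dmd and Emp1 were not called under at least 1 of the 3 other scalings (highest adjusted p = 0.0594 to 0.0987).

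Genes best known from neurons were called in both directions. The neurofilament genes Nefl and Nefm, neighbours on chromosome 14, both rose. Nefm had 14 and 20.3 FPKM in mutant and 7.15 and 3.61 FPKM in control libraries (2.92-fold, adjusted p = 0.00967) and Nefl had 23.9 and 32.9 FPKM in mutant and 15.1 and 16.9 FPKM in control libraries (1.71-fold, adjusted p = 0.0422). They belong to the 15 neuronal markers and are part of the summed level of those markers, which was higher in both mutant libraries. Of the 5 such markers tested, only Nefl, Nefm and Gap43 had a difference above 0. Whether neurons took part in the difference was not tested. Of the other neuronal markers, Gap43 differed by 0.36 on the log2 scale (adjusted p = 0.391) and Rbfox3 by -0.31 (adjusted p = 0.509). The microtubule-associated gene Map6 rose 1.91-fold (1.83 and 1.86 against 0.659 and 0.338 FPKM, adjusted p = 0.00982), and Fez1, an adaptor of kinesin transport, had 6.48 and 6.65 FPKM in mutant and 14.5 and 11.6 FPKM in control libraries and fell 1.84-fold (log2 -0.88, SE 0.14, adjusted p = 0.00982). Among synaptic genes, the scaffold genes Shank1 and Ppfia2 rose 1.66-fold and 1.62-fold (adjusted p = 0.0235 and adjusted p = 0.0172), the glutamate receptor gene Gria3 fell 1.58-fold (11.4 and 11.4 against 17.3 and 19.7 FPKM, adjusted p = 0.0322), and Lrrtm3, which shares a locus with Ctnna3, fell 1.76-fold. The potassium channel gene Kcnn2 was 1 of 9 tested and rose 2.27-fold (adjusted p = 0.0033). The adhesion gene Cadm3 fell 1.60-fold (adjusted p = 0.0458), 1 of 45 immunoglobulin-family adhesion genes. The guidance genes Robo2, a receptor of Slit ligands, and Flrt3, which shares a locus with Macrod2, rose 1.62-fold and 1.65-fold. Nefl and Cadm3 were no longer called without mutant replicate 2 (adjusted p = 0.0524 and 0.0717). Nefl, Cadm3 and Flrt3 were no longer called without control replicate 1 (adjusted p = 0.128, 0.281 and 0.0777). Shank1, Gria3, Robo2 and Flrt3 were no longer called without control replicate 2 (adjusted p = 0.0585 to 0.271). Nefm, Nefl, Shank1, Gria3, Cadm3 and Flrt3 were not called under at least 1 of the 3 other scalings (highest adjusted p = 0.0518 to 0.109).

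Metabolic and stress genes had few calls. The glutathione transferase genes Gstm6 and Gstm7, neighbours on chromosome 3, both fell. Gstm7 had 4.22 and 4.41 FPKM in mutant and 8.65 and 7.27 FPKM in control libraries (1.68-fold, adjusted p = 0.0168) and Gstm6 1.67-fold lower levels in mutants (adjusted p = 0.0472). The thiol transferase gene Glrx fell 1.79-fold (log2 -0.84, SE 0.129, adjusted p = 0.00892). Aldoc, a glycolytic aldolase, fell 1.69-fold (1.67 and 1.99 against 3.64 and 3.92 FPKM, adjusted p = 0.0145), and Eno1 rose 1.80-fold, but its transcript has near-identical copies. Alpl, which splits pyrophosphate, rose 3.45-fold (log2 1.79, SE 0.148, adjusted p = 0.000131), and Enpp1, which makes pyrophosphate, had 4.90 and 7.96 FPKM in mutant and 12.8 and 12.9 FPKM in control libraries and fell 1.90-fold (adjusted p = 0.0267). The stress gene list had Fosl2 (1.71-fold, adjusted p = 0.0138) and Klf4 higher of 28 tested. Slc35f1 was the 1 called gene of 158 solute carriers (1.62-fold higher, adjusted p = 0.0254). Rmrp, a noncoding RNA of mitochondrial RNA processing, had 8.11 and 10.4 FPKM in mutant and 21.5 and 24.6 FPKM in control libraries and fell 2.36-fold (log2 -1.24, SE 0.149, adjusted p = 0.00186). Gstm6 and Slc35f1 were no longer called without mutant replicate 2 (adjusted p = 0.117 and 0.0847). Gstm7 was no longer called without control replicate 1 (adjusted p = 0.0705). Gstm6 was no longer called without control replicate 2 (adjusted p = 0.112). Gstm6, Enpp1 and Slc35f1 were not called under at least 1 of the 3 other scalings (highest adjusted p = 0.0634 to 0.122).

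The largest values of all belonged to genes whose reads can be split between copies. Hba-a1 had 0.279 and 0.132 FPKM in mutant and 47.6 and 30.5 FPKM in control libraries and Hba-a2 had 38.5 and 23.8 FPKM in mutant and 0.551 and 1.71 FPKM in control libraries, opposite differences in alpha globin genes with near-identical transcripts, beside the summed erythroid level given above. Atp6v0c, which shares its locus with a pseudogene, had 0.0153 and 0.0135 FPKM in mutant and 34.7 and 7.96 FPKM in control libraries. Gdf1 shares its transcript with Cers1 and fell 2.12-fold, while Cers1 differed by 1.08 (adjusted p = 0.102). Hist1h3a, 1 of many near-identical histone genes, fell 1.62-fold, and U2af1l4 fell 1.56-fold. The 4 called RNAs under 200 bases also belong to this group. Hist1h3a and U2af1l4 were no longer called without control replicate 1 (adjusted p = 0.0524 and 0.282). Gdf1 and U2af1l4 were not called under at least 1 of the 3 other scalings (highest adjusted p = 0.0615 to 0.0929).

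Other classes gave no call. In 22 of the 65 classes no member was called, and a missing call does not show that the genes did not differ. None was called among 42 S phase genes, 39 genes of G2 and mitosis, 81 cytosolic and 75 mitochondrial ribosomal proteins, 81 oxidative phosphorylation subunits, 40 proteasome subunits, 23 cholesterol synthesis genes or 159 ubiquitin ligases of the Kelch, Fbx and Trim families. The same held for 17 Hedgehog, 22 Notch, 38 TGF-beta and Hippo and 16 ephrin and Eph genes, and for 43 cadherins and 43 calcium, sodium, chloride and TRP channels. The members of each class with the smallest unadjusted p, where it was under 0.05, had the following differences on the log2 scale. In the Hedgehog list Gas1 differed by -0.40 and Cdon by -0.36, and in the Notch list Hes1 by -0.51 and Hey1 by 0.47. In the TGF-beta list Ltbp1 differed by 0.47 and Tgfb2 by 0.34, among growth factor genes Figf by 0.67 and Pdgfc by 0.60, and among ephrins Efna5 by 0.36. The T-box gene Tbx2 differed by -0.48, the connexin gene Gja1 by 0.33, and the cadherins Pcdh19 and Cdh18 by 0.64 and -0.64. The channel genes Cacna2d1 and Piezo2 differed by 0.55 and -0.50, and the Ras regulators Rgl1 and Rassf3 by 0.65 and -0.42. In the cytochrome P450 class Cyp27a1 differed by -0.59 and Cyp26a1 by -0.66, in lipid metabolism Acss3 by -0.56 and Lpl by 0.49, and among ubiquitin ligases Trim12a by -0.52 and Fbxw17 by -0.47. In the cell cycle lists Rrm1 differed by 0.36, Pola1 by 0.32 and Cdkn1c by 0.45, and in the ribosomal and respiratory lists Rps14 by -0.48, Mrpl46 by -0.37, Mrpl34 by -0.35 and Ndufb7 by -0.37. Among imprinted genes Dcn, the proteoglycan decorin, had the largest of these differences at -1.01 (adjusted p = 0.113), and Zim1 differed by 0.59.

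Some called genes lay beside each other on a chromosome. Of 158 called genes of clear assignment, 29 (18.4%) had another such gene called in the same direction with a start within 1000 kb. Of 10244 tested genes of clear assignment 823 (8.03%) had such a called gene of their own sign. Near-identical copies were searched for called genes only, so the uncalled genes among the 10244 were not judged on copies. On chromosome 1, Dusp23, Darc, Cadm3 and Aim2, a DNA sensor of the inflammasome, were the 4 tested genes of an 835268-base span and all fell, with differences of -0.80, -0.77, -0.67 and -0.77. On chromosome 10, Lgr5, Tspan8 and Ptprr were the 3 tested genes of their span and all rose, by 0.99, 0.89 and 0.68. On chromosome 11, Cox10 lies between the Hs3st3 genes and differed by 0.10 (adjusted p = 0.903). On chromosome 2, Calcrl, Serping1 and Lrrc55 fell by 0.71, 0.70 and 0.72 and the other 14 tested genes of the span were not called. An uncharacterised gene called beside Nefm overlaps it, and the counting is not stated to use strand, so their reads cannot be told apart. On chromosome 15, which carries Osr2, 5 other genes were called of 424 tested, at 19 to 67.1 megabases from it. Lrrc55 was no longer called without mutant replicate 2 (adjusted p = 0.0895). Aim2 was no longer called without control replicate 1 (adjusted p = 0.0933). Aim2 and Lrrc55 were not called under at least 1 of the 3 other scalings (highest adjusted p = 0.0502 to 0.0648).

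**Figure D4:**
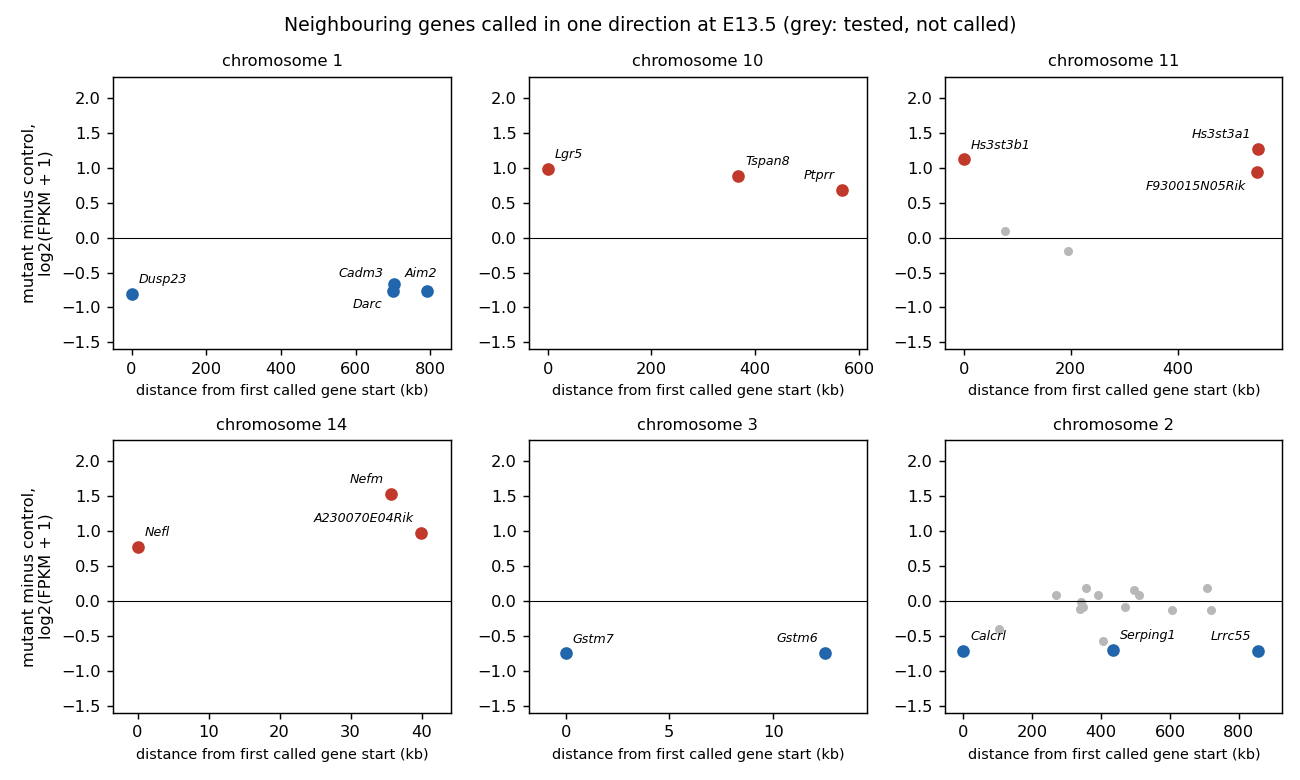
Mutant minus control difference on the log2(FPKM + 1) scale of each tested gene (points) against distance from the start of the first called gene in kb, in 6 spans with neighbouring genes called in one direction. Called genes are red or blue and named, and grey genes were tested but not called. On chromosomes 1, 10, 14 and 3 every tested gene of the span was called, and on chromosomes 2 and 11 uncalled genes lie between.

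Most of these differences had the same sign in the E12.5 pair, which has 1 library per group and so no test of its own. Both E12.5 libraries had Xist (129 FPKM in the mutant and 141 FPKM in the control) and Ddx3y at 0, unlike the E13.5 controls. Of the 113 genes called higher at E13.5, 97 were above 0 at E12.5, and of the 67 called lower 56 were below 0. The median of all genes tested was 0.18 at E12.5, so most tested genes lay above 0 there. The 97 of 113 is thus not to be read against an even split. FPKM sums were 189855 in the E12.5 mutant and 154919 in the E12.5 control library. The E12.5 difference was 1.22 for Tnmd, 1.25 for Pcp4, 1.84 for Plk2, 1.85 for Sox6 and 1.57 for Penk. Igf1 differed by -1.10 and Rmrp by -1.44 at that age. Of the called tendon and joint genes, Thbs2 (0.24), Tnn (0.28) and Prg4 (0.03) had differences near the median of all genes at E12.5. Tnn was close to 0 FPKM at that age (mutant 0.223, control 0.0101), where the scale used keeps any difference small. Others of that list differed more at E12.5, Col12a1 and Aspn by 0.53 each and Tnmd by 1.22. Kera was at 0 FPKM in both E12.5 libraries. In a fit of all 6 libraries, the interaction of genotype and age was called for 4 of 10799 genes (0.0370%), namely Hba-a1, Hba-a2 and a microRNA and a small nucleolar RNA gene, all of uncertain assignment. With limma 627 genes had an unadjusted interaction p under 0.05, and among called genes of clear assignment the smallest adjusted p was 0.110, for an uncharacterised gene with differences of 0.76 at E13.5 and -1.10 at E12.5 (4732416N19Rik). No gene of clear assignment named here was thus shown to differ in its response between the ages.

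**Figure D5:**
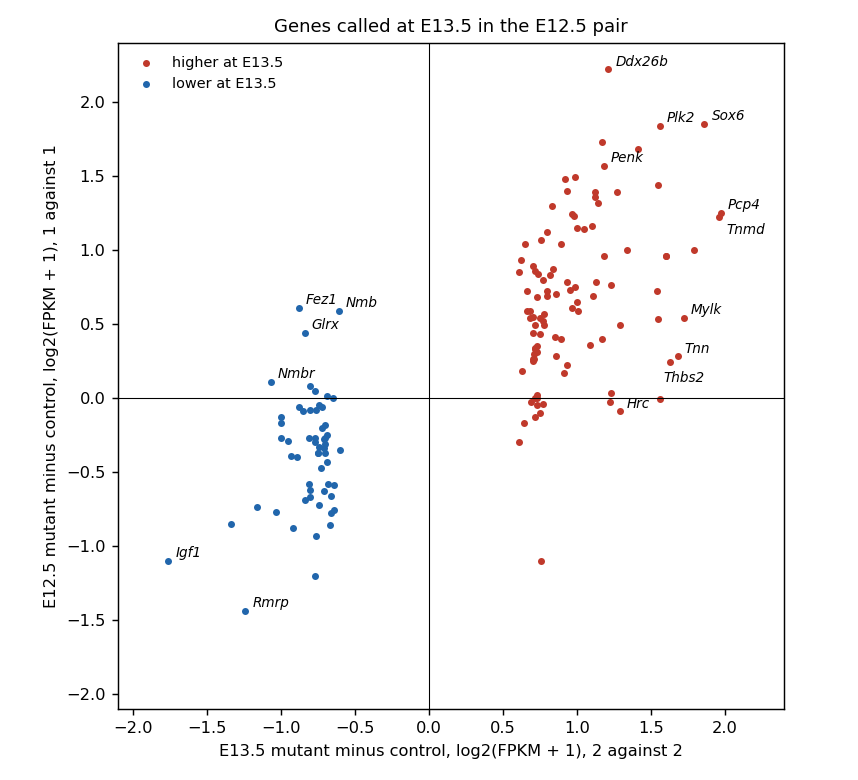
Mutant minus control difference on the log2(FPKM + 1) scale at E13.5 (horizontal, 2 against 2 libraries) and at E12.5 (vertical, 1 against 1) for the 158 called genes of clear assignment, red for those higher and blue for those lower at E13.5. Most red points lie above 0 and most blue points below 0 at E12.5, and Thbs2 and Tnn lie near 0. The median of all genes tested was 0.18 at E12.5. The level of Tnn was at most 0.223 FPKM at that age, which keeps its difference small.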

How the data were processed

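RNA of RFP-sorted palatal cells was sequenced in 6 libraries. The labels' protocols name both a Nextera and a stranded TruSeq kit and do not state whether counting used strand. Bowtie 0.12.7 and TopHat 1.4.1 are listed as tools, and mm9 and mm10 as builds, per the submitters' processing notes. The deposited tables hold the FPKM of each transcript as the authors computed it with Cufflinks, per the file headers, of a release not given in the sources used here. Only to estimate fragments, assuming 75 bases per read, use was made of the coverage signal deposited beside each FPKM, which is the mean depth over a transcript. Of 30598 lines matched to a RefSeq accession, 96.6% lay inside their GRCm38.p6 locus, so coordinates are those of mm10. Starts were 1 less than the RefSeq gene start in 16533 lines and equal to it in 1043, so they were read as counted from 0 and are printed counted from 1.

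FPKM were summed per gene symbol, leaving out 25 symbols with a failed estimate. Genes that reached 1 FPKM in 2 or more E13.5 libraries were tested on log2(FPKM + 1) with limma 3.58.1 in R 4.3.3, with an intensity trend and Benjamini-Hochberg adjustment over all genes tested, at a threshold of 0.05. The interaction with age used all 6 libraries, and lent the single E12.5 libraries the spread of the E13.5 groups. The procedure was also run on simulated data that took their spread from the same fit. That run cannot show whether the fit suits these libraries. Depth behind single FPKM values is unknown beyond these estimates, so no counting interval is given. A transcript with a copy of at least 95% identity over at least 50% of its length (BLAST 2.17.0), a locus shared by at least 80%, several loci or under 200 bases made a gene uncertain. Copies were searched for called genes only. Named genes are Osr2, the 15 higher and 15 lower called genes with the largest differences where either group averaged 5 FPKM or more, called members of 65 classes, up to 2 members of a class without calls, and called genes of no class; unnamed loci and small RNAs are left out, and a few items are not reported here. Members and lists were chosen with earlier results of these data known, and 10 lists, 3 alternatives and the members Igfbp5, Fgf18 and Gap43 were added after these values were seen. The 10 lists hold caveola, angiotensin and endothelin, prostaglandin, dystrophin, tendon, synaptic, bombesin, EGF and neuregulin, tetraspanin and Runx genes. Alternatives changed the pseudocount, filter, scaling, variance model, transcript summary, libraries and a block on the title number.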

Additional observations from a re-analysis of the deposited data

Results flagged for a closer look

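The interaction of genotype and age was called by limma for Hba-a1 (adjusted p = 1.82e-06), Hba-a2 (0.0152), Mir1931 (0.0152) and Snora28 (1.49e-05), so that their mutant minus control differences were not the same at both ages. All 4 are near-identical to another gene or under 200 bases.

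Another 19 of the named called genes had the opposite sign in the single E12.5 pair. Of genes higher at E13.5, the E12.5 difference on the log2 scale was -0.01 for Sp7, -0.09 for Hrc, -0.03 for Clec11a, -0.04 for Lgals9, -0.10 for Spock1, -0.05 for Plxnd1, -0.13 for Pappa, -0.03 for Ppfia2, -0.17 for Fam110a and -0.30 for Nav3. Of genes lower at E13.5 it was 0.59 for Nmb, 0.01 for Agtr2, 0.55 for Hist1h3a, 0.05 for Jph4, 0.08 for BC028528, 0.11 for Lrrtm3, 0.44 for Glrx, 0.61 for Fez1 and 0.11 for Nmbr. The opposite sign in 1 pair is not a test of the difference, and the interaction test called none of these 19 genes.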

How the results depend on the processing

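The labels number no replicates, but the number that opens each title is 1 value for mutant replicate 1 and another for the other 3 E13.5 libraries. Taken as a replicate block, chosen after seeing the data, it gave 379 calls, 195 higher and 184 lower, and 37 interaction calls, with Osr2 at -0.71. With 1 library against 3, such a block leaves mutant replicate 1 out of the difference, and whether it pairs libraries was not tested. The 180 calls became 0 with no filter on low values, 110 and 63 with a mean of at least 1 and 5 FPKM, 117 by median-ratio scaling and 117 by quantile normalization, 286 with robust empirical Bayes, 38 with the highest transcript per gene, and 223 to 383 when 1 library was left out. In the same order, the 113 higher calls became 0, 74, 45, 74, 75, 165 and 26, and 113 to 197 without 1 library. The 67 lower calls became 0, 36, 18, 43, 42, 121 and 12, and 90 to 186 without 1 library, of which 110 without control replicate 2. The 4 interaction calls became 13 with no filter, 11 with a mean of at least 1 FPKM, 2 by median-ratio scaling, 2 by quantile normalization, 25 with robust empirical Bayes and 13 to 37 without 1 library. The difference of Osr2 stayed at -0.89 with no filter, both other filters and the highest transcript, where the call was lost (adjusted p = 0.306, 0.0547, 0.0541 and 0.121), and ranged from -1.07 to -0.71 without 1 library, the call being lost without control replicate 2 (-0.82). The other settings kept each count within 1.5 times. None of the 169 called genes that may be named changed sign in any setting tried. For the fits without 1 library this was fixed in advance, because the groups did not overlap in any called gene. The prior degrees of freedom were 8.67 in the fit reported, 2.5 with no filter and 82.9 to 83.7 without a control library, and the cause of the changed counts was not tested. Genes near 1 FPKM rest on few fragments.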

Other observations

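Several called genes belong to no class above. Of those higher in mutants, Ddx26b on the X chromosome had 6.70 and 6.94 FPKM in mutant and 2.40 and 2.38 FPKM in control libraries (2.31-fold), with each group close within itself. Hrc, which binds calcium in the sarcoplasmic reticulum, had 2.11 and 2.07 FPKM in mutant and 0.396 and 0.150 FPKM in control libraries (2.44-fold). Clec11a, a secreted lectin-like factor known to act on osteoblasts, rose 2.32-fold (4.13 and 2.05 against 0.897 and 0.528 FPKM). Pdzrn4 rose 2.19-fold, the AAA ATPase gene Fign 2.00-fold, Mtus1 1.99-fold, Sertad4 1.79-fold, Lonrf2 1.74-fold and the galectin gene Lgals9 1.70-fold. Pid1 rose 1.65-fold, Ankrd50 1.64-fold, Wscd2 1.64-fold, Oxld1 1.63-fold, the B cell adaptor gene Blnk 1.63-fold, Fam110a 1.55-fold, the neuron navigator gene Nav3 1.53-fold and Reps2, which shares a locus with Bc1, 1.65-fold. Lgals9 and Wscd2 were no longer called without mutant replicate 1 (adjusted p = 0.0655 and 0.13). Ankrd50, Oxld1, Blnk, Fam110a, Nav3 and Reps2 were no longer called without mutant replicate 2 (adjusted p = 0.0763 to 0.138). Pid1, Oxld1 and Fam110a were no longer called without control replicate 1 (adjusted p = 0.0523, 0.141 and 0.19). Sertad4, Ankrd50, Blnk and Nav3 were no longer called without control replicate 2 (adjusted p = 0.0712 to 0.208). Clec11a, Pdzrn4, Mtus1, Lgals9, Pid1, Ankrd50, Wscd2, Oxld1, Blnk, Fam110a, Nav3 and Reps2 were not called under at least 1 of the 3 other scalings (highest adjusted p = 0.0538 to 0.116).

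Of those lower in mutants, Scrn1 had 0.981 and 1.77 FPKM in mutant and 3.83 and 3.25 FPKM in control libraries (1.93-fold) and Oasl2, an interferon-induced gene, had 0.279 and 0.690 FPKM in mutant and 1.49 and 2.11 FPKM in control libraries (1.89-fold). Tmem252 was the most abundant of them, with 11.9 and 13.6 FPKM in mutant and 21 and 22.8 FPKM in control libraries (1.67-fold). Fam43a, which shares a locus with Mir1195, fell 1.84-fold, Nrsn2, which shares a locus with Gm14164, 1.85-fold, Tmem59l 1.79-fold, Zcchc5 on the X chromosome 1.75-fold and BC028528 1.74-fold. Jph4, a junctophilin that ties the plasma membrane to the endoplasmic reticulum, fell 1.71-fold, Brinp3 1.66-fold and AI606473, which lies beside Lhx8, 1.62-fold. Brinp3 was no longer called without mutant replicate 1 (adjusted p = 0.0638) or without mutant replicate 2 (adjusted p = 0.0587). AI606473 was no longer called without control replicate 1 (adjusted p = 0.0647). Tmem252, Brinp3 and AI606473 were no longer called without control replicate 2 (adjusted p = 0.107, 0.113 and 0.0824). Scrn1, Oasl2 and Brinp3 were not called under at least 1 of the 3 other scalings (highest adjusted p = 0.0555 to 0.123).

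On the X chromosome 11 of 379 tested genes were called (2.90%), 5 higher and 6 lower, beside 1.66% of autosomal genes. Mutant replicate 2 is the E13.5 library with Xist. Leaving it out could not change the sign of these 11 genes, because their groups did not overlap. Whether its Xist pattern took part in these calls was not tested.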
